A study of Mus musculus with 11 samples.

Results

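The Hes, Hey and Id genes encode regulators of transcription of the helix-loop-helix class, grouped as repressors. Here 10 (Hes1, Hes5, Hes6, Hey1, Hey2, Heyl, Id1, Id2, Id3 and Id4) were followed through 11 RNA-seq libraries of mouse embryonic dorsal telencephalon. This is the roof of the forebrain that gives rise to the neocortex. The genes were taken by symbol, each symbol matched 1 gene identifier, and they are 10 of the 46078 genes counted. All embryos were of the CD-1 strain. Sorted cells came from wild-type embryos electroporated in utero at E12.5 and collected at E15.5 by their GFP: 3 libraries carried pCIG2-L3mbtl3 (L3mbtl3 gain) and 3 carried the empty pCIG2 plasmid (GFP control). Microdissected tissue was collected at E12.5: 2 libraries labelled L3mbtl3 -/- and 3 controls, of which 2 were labelled L3mbtl3 +/- and 1 wild-type. The labels do not say whether embryos were pooled, and the spread between them, which every p-value rests on, may be technical. The study's title names PRC1 (a Polycomb complex), neurogenesis and proneural genes together with L3mbtl3. Most Hes, Hey and Id proteins are known to hold back proneural genes or the action of their products.

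Hes1 and Hes5 are effectors of Notch signalling. When a Notch receptor is cut after meeting its ligand on a neighbouring cell, its intracellular part joins the DNA-binding protein Rbpj and switches these genes on, and their products silence proneural genes such as Neurog2, which keeps a cortical cell in the progenitor state. Hey1, Hey2 and Heyl are related Notch targets, with known roles in blood vessels as well as in the brain. Hes6 is the exception within the Hes family, since it opposes Hes1 and favours neuronal differentiation. The Id proteins lack a DNA-binding region and act by sequestering E proteins, the partners that proneural factors need, and Id1 and Id3 are well-known targets of BMP signalling.

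RefSeq promoters (build GRCm38.p6) were found for 6 of the 10 genes, and 4 are shown, 2 for each direction between sorted cells and tissue. Hes5 and Hey2 were lower in sorted cells, while Hes6 and Id2 were higher. Each stretch is the 250 bases before the RefSeq start. Capitals mark the Rbpj core TGGGAA on either strand (TTCCCA when read on the other) and GGCGCC, a palindrome found in BMP-responsive SMAD elements. The 2 motifs do not overlap in these stretches.
Hes5 (chr4:154960673-154960922, plus strand): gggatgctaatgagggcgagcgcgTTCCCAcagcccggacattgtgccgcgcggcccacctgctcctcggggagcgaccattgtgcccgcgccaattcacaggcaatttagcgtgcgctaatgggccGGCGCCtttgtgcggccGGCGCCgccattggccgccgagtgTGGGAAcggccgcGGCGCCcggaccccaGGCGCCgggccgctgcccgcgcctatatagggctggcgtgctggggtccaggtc
Hey2 (chr10:30842784-30843033, minus strand): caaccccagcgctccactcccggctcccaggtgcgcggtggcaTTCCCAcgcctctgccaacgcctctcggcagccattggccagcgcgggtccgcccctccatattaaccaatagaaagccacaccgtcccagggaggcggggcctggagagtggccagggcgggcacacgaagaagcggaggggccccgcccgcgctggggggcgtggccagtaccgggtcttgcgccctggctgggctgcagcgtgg
Hes6 (chr1:91414039-91414288, minus strand): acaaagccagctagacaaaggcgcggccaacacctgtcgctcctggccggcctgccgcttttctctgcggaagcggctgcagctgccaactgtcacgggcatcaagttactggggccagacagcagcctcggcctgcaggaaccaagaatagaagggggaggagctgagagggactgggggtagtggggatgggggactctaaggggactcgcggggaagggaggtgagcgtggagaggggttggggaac
Id2 (chr12:25096093-25096342, minus strand): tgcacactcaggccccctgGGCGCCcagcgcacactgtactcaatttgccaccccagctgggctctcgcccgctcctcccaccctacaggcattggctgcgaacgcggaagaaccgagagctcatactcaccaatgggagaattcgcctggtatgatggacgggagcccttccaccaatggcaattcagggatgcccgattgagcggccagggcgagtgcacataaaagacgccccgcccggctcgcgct
The Hes5 stretch held 2 Rbpj cores in opposite orientation with 138 bases between them, a count reached by 2.77% of 32851 promoters, while 21.6% held at least 1. Hey2 held 1. In the 300-base window that adds the 50 bases after the start, Hes5 and Hey2 each held 2, and 3.79% of promoters held at least that many. The Hes6 and Id2 stretches held no Rbpj core. GGCGCC was present 4 times in Hes5 and 1 time in Id2, against 9.59% of promoters with at least 1. Of the other 2 promoters matched, that of Id4 held 1 of each motif and that of Id3 neither. Both genes were, like Hes5 and Hey2, lower in sorted cells. A match describes letters in a window and does not show binding.

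Library totals were 16527551 to 26658718 counts, so that a count of 0 allowed up to 0.105 to 0.177 CPM (counts scaled to library size, with TMM scaling over all 11 libraries; counting error only). No pair of same-group libraries was as alike as sampling noise alone would make it (chi-square per degree of freedom 3.57 to 86.3). Libraries with more Xist counts than summed Y-linked counts were typed as female. These were gain libraries 1 and 3 and labelled knockout library 2, and the other 8 were typed as male. This rule gives every library a single sex, so it cannot show a pool of both. L3mbtl3 itself measured 1517, 1261 and 892 CPM in the gain libraries, against 54.0, 49.98 and 59.5 CPM in GFP controls, a log2 change of 4.49 (SE 0.217, edgeR adjusted p = 0.00136). In E12.5 tissue it measured 67.1 and 70.4 CPM in the libraries labelled knockout, against 57.5, 57.8 and 58.1 CPM in the controls, and was called higher (0.27, SE 0.0539, edgeR adjusted p = 0.0128). Counts over all exons do not show a deleted exon, so these libraries are named by their label. Tissue markers were measured throughout: apical progenitor genes (such as Sox2 and Pax6) summed to 4227 to 4524 CPM in the labelled knockouts and 4235 to 4482 CPM in the E12.5 controls. Markers of other cells were counted in the E12.5 controls too, where cortical hem markers summed to 314 to 331 CPM, endothelial markers to 437 to 522 CPM and meningeal markers to 1694 to 1884 CPM.

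**Figure D1:**
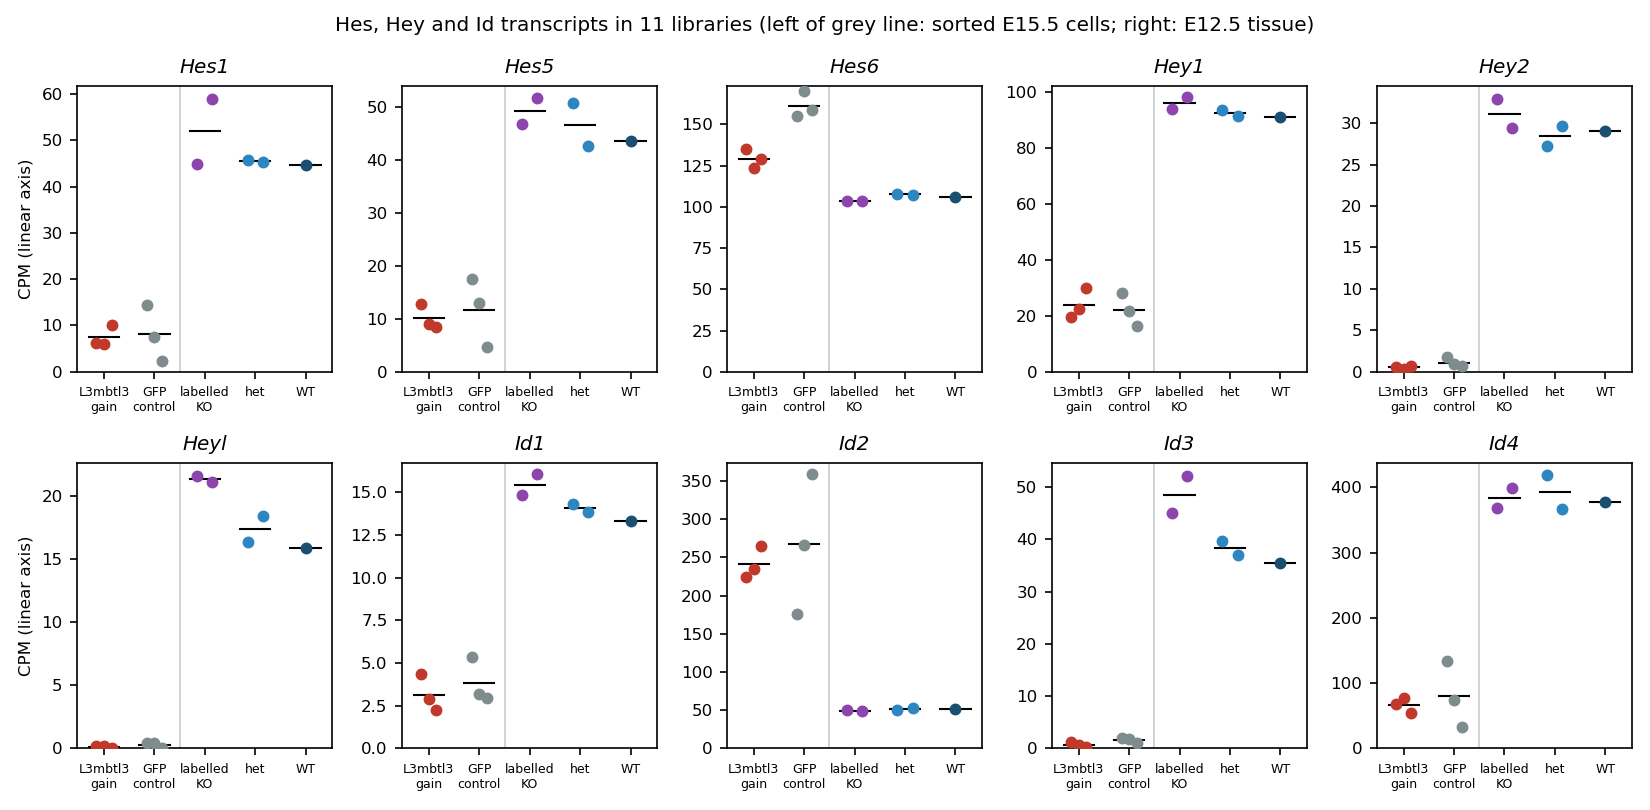
CPM of each gene (y axis, linear from 0) in every library, by group, with the group mean as a bar. The sorted libraries are left of the grey line and the E12.5 tissue right of it; 8 genes are low and Hes6 and Id2 high in sorted cells, and Id3 and Heyl are higher in both labelled knockout libraries than in any E12.5 control.

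Per transcript length, Id4 was the most abundant of the 10 genes in E12.5 tissue and Id2 in sorted cells. On the RPKM scale (CPM per kilobase of exon), mean levels in the E12.5 controls (SD, n = 3) were 234 ± 16.501 for Id4, 59.2 ± 0.638 for Hes6, 40.7 ± 0.718 for Id2, 33.5 ± 3.24 for Hes5, 28.2 ± 0.444 for Hey1, 22.2 ± 0.310 for Hes1, 20.9 ± 1.16 for Id3, 11.9 ± 0.439 for Id1, 11.2 ± 0.488 for Hey2 and 3.31 ± 0.266 for Heyl. The neighbours Hes1 and Id3, and likewise Id1 and Hey2, had overlapping libraries, while other neighbours in this order did not overlap. In the GFP controls the order of RPKM levels began with Id2 (210 ± 71.9), Hes6 (89.2 ± 4.29) and Id4 (48.4 ± 30.7; SD, n = 3 each), with no overlap between these neighbours. Hes5 (8.64 ± 4.80), Hey1 (6.77 ± 1.78), Hes1 (3.99 ± 2.99) and Id1 (3.299 ± 1.12) followed with overlapping libraries. Id3 (0.904 ± 0.298) and Hey2 (0.438 ± 0.226) overlapped each other, and Heyl was lowest (0.0564 ± 0.0490). The L3mbtl3 gain libraries gave the same order of mean RPKM levels, from 190.0 ± 16.3 for Id2 to 0.0205 ± 0.0178 for Heyl, and the labelled knockouts ran from 231 ± 12.9 for Id4 to 4.18 ± 0.0658 for Heyl (SD, n = 2).

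Between sorted E15.5 GFP control cells and E12.5 control tissue, 8 of the 10 genes were lower in the sorted cells and 2, Hes6 and Id2, were higher. None of the 10 overlapped between the groups, as 34% of all genes did not on the higher side and 38.1% on the lower. All 10 passed edgeR's test, in a comparison where 62.3% of 15968 genes did (31.1% higher, 31.3% lower), so that a call by itself sets no gene apart. The median log2 fold change was -2.14 over the 10 genes and -0.02 over all genes tested. Stage, sorting, electroporation and the L3mbtl3 +/- genotype of 2 tissue controls differ together here and cannot be told apart, nor can fewer cells of a type and less RNA per cell. With scaling by library totals alone the median of all genes moved by -0.27 (log2) and 35.5% of calls, in place of 49.9%, were higher; the 10 genes kept their direction.

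The Notch effectors of the Hes family were lower in sorted cells. Hes1 had 14.5, 7.49 and 2.38 CPM in GFP control libraries 1, 2 and 3, against 45.8 and 45.3 CPM in the heterozygotes and 44.6 CPM in the wild-type. The log2 difference was -2.45 (SE 0.544, edgeR adjusted p = 0.00738). Hes5 had 17.6, 13.03 and 4.70 CPM in the GFP controls, against 50.8, 42.7 and 43.6 CPM in the E12.5 controls, a log2 difference of -1.93 (SE 0.420, edgeR adjusted p = 0.00669). No sorted library reached the lowest tissue library for either gene, and the sorted libraries differed 6.11-fold for Hes1 and 3.74-fold for Hes5 among themselves. Hes6 went the other way, at 155, 170.0 and 159 CPM in the GFP controls, against 108, 107 and 106 CPM in the E12.5 controls (0.61, SE 0.0708, edgeR adjusted p = 0.000437). Its groups did not overlap and its sorted libraries lay within 1.10-fold of each other.

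Among the Hey genes, Hey1 kept the highest level in sorted cells and Heyl was near the detection limit. Hey1 measured 28.0, 21.9 and 16.4 CPM in the GFP controls, against 93.6, 91.4 and 90.9 CPM in the E12.5 controls, a log2 difference of -2.03 (SE 0.184, edgeR adjusted p = 0.000180). Hey2 measured 1.76, 0.943 and 0.648 CPM, from 35, 16 and 12 counts, in the GFP controls, against 27.3, 29.7 and 29.1 CPM in the E12.5 controls (-4.64, SE 0.323, edgeR adjusted p = 7.57e-05). Heyl had 9, 7 and 0 counts in the GFP controls, against 468, 338 and 348 counts in the E12.5 controls (-5.82, SE 0.570, edgeR adjusted p = 0.000240). None of the 3 genes overlapped between groups.

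The Id genes split. Id4, which is known in cortical progenitors, had 134, 74.0 and 32.7 CPM in the GFP controls, against 419, 367 and 378 CPM in the E12.5 controls (-2.25, SE 0.456, edgeR adjusted p = 0.00504). Id1 had 5.33, 3.18 and 2.97 CPM, against 14.3, 13.8 and 13.3 CPM in the E12.5 controls (-1.82, SE 0.245, edgeR adjusted p = 0.000884). Id3 had 2.06, 1.77 and 1.03 CPM, against 39.6, 37.0 and 35.5 CPM (-4.50, SE 0.239, edgeR adjusted p = 3.69e-05). Id2 rose in sorted cells, to 176, 266 and 359 CPM, against 50.7, 52.5 and 51.8 CPM in the E12.5 controls, a log2 difference of 2.39 (SE 0.254, edgeR adjusted p = 0.000329).

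The 8 genes that were lower fell into sizes that can be separated by their 95% intervals. Hey2 (-5.41 to -3.87), Heyl (-7.18 to -4.46) and Id3 (-5.07 to -3.93) had log2 intervals that lay wholly below those of Hes1 (-3.75 to -1.15), Hes5 (-2.94 to -0.93), Hey1 (-2.47 to -1.59), Id1 (-2.41 to -1.24) and Id4 (-3.34 to -1.16). Markers of vessels, meninges and hem were lower in the same libraries. All 11 endothelial markers fell (median -5.07), as did 8 of 8 pericyte and mural markers (median -4.67), 11 of 11 meningeal markers (median -5.36) and 11 of 11 cortical hem markers (median -6.63, or -6.07 with the 2 genes at 0 in sorted libraries set to their bound). Summed endothelial markers stood at 14.7 to 19.9 CPM in the GFP controls, against 437 to 522 CPM in the E12.5 controls, and Wnt3a and Msx2 were at 0 counts in all GFP controls. Of 10 choroid plexus markers 9 fell and 1 rose (median -5.28). The part of these cells in the values of Hey2, Heyl and Id3 was not tested.

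Markers of the cortical lineage moved less. Of 16 apical progenitor markers 9 fell and 3 rose, with a median of -0.98, for example Emx2, a cortical patterning factor (-2.12, SE 0.185), and Ptprz1, a receptor phosphatase of radial glia (1.11, SE 0.109). Postmitotic neuron markers rose in 12 of 13 cases (median 1.67), among them Dcx, a microtubule-associated protein of young neurons, at 1551 CPM in the GFP controls against 493 CPM in the E12.5 controls. Of 11 intermediate progenitor markers 6 rose and 3 fell (median 0.43). Among ventral telencephalon markers 3 rose and 1 fell of 12 (median 2.72). Their sums were 1000, 319 and 16.4 CPM in GFP controls 1, 2 and 3, against 54.7 to 76.7 CPM in the E12.5 controls. Library 3 thus lay below every tissue control. Immediate early genes rose in 8 of 11 cases (median 1.21). Microglial and astrocyte or oligodendrocyte markers fell in 4 of 12 and 4 of 10 cases (medians -1.07 and -0.13), with 1 astrocyte marker, Aldh1l1, higher.

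Genes that work with the repressors differed between sorted cells and tissue as well. Of 22 core Notch genes 11 fell and 4 rose (median -0.69), including Notch4, a receptor of vessels (-2.35, SE 0.162), Numb (-1.26, SE 0.118) and its relative Numbl (1.64, SE 0.183), both of which restrain Notch receptors, and Rfng, a glycosyltransferase that modifies them (1.74, SE 0.153). Of 21 BMP genes 10 fell and 6 rose (median -0.49), among them the ligands Bmp7 (-3.77, SE 0.211) and Bmp5 (-4.72, SE 0.364), the transducer Smad1 (1.15, SE 0.0914) and the BMP antagonist Chrd (1.57, SE 0.153). Hes proteins such as Hes1 recruit Tle proteins as corepressors. The list called Groucho corepressors here held Tle1, Tle2, Tle3, Tle4 and Aes, and 4 of these 5 genes rose. Tle3 stood at 377 against 114 CPM and Tle2 at 31.1 against 7.38 CPM, while Tle4 fell to 42.2 CPM, against 85.3 CPM in tissue. Among E proteins, the partners of Id, Tcf12 fell (-0.72, SE 0.189) and the other two were not called. Of 12 proneural and neuronal bHLH factors 4 rose and 3 fell (median 0.50), with Neurod2 (3.75) and Neurod6 (2.65) higher and Nhlh1 (-2.14) and Neurog1 (-1.70) lower. Among other Hes-related genes Bhlhe40 fell (-1.42, SE 0.161), 1 of 2 tested.

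**Figure D2:**
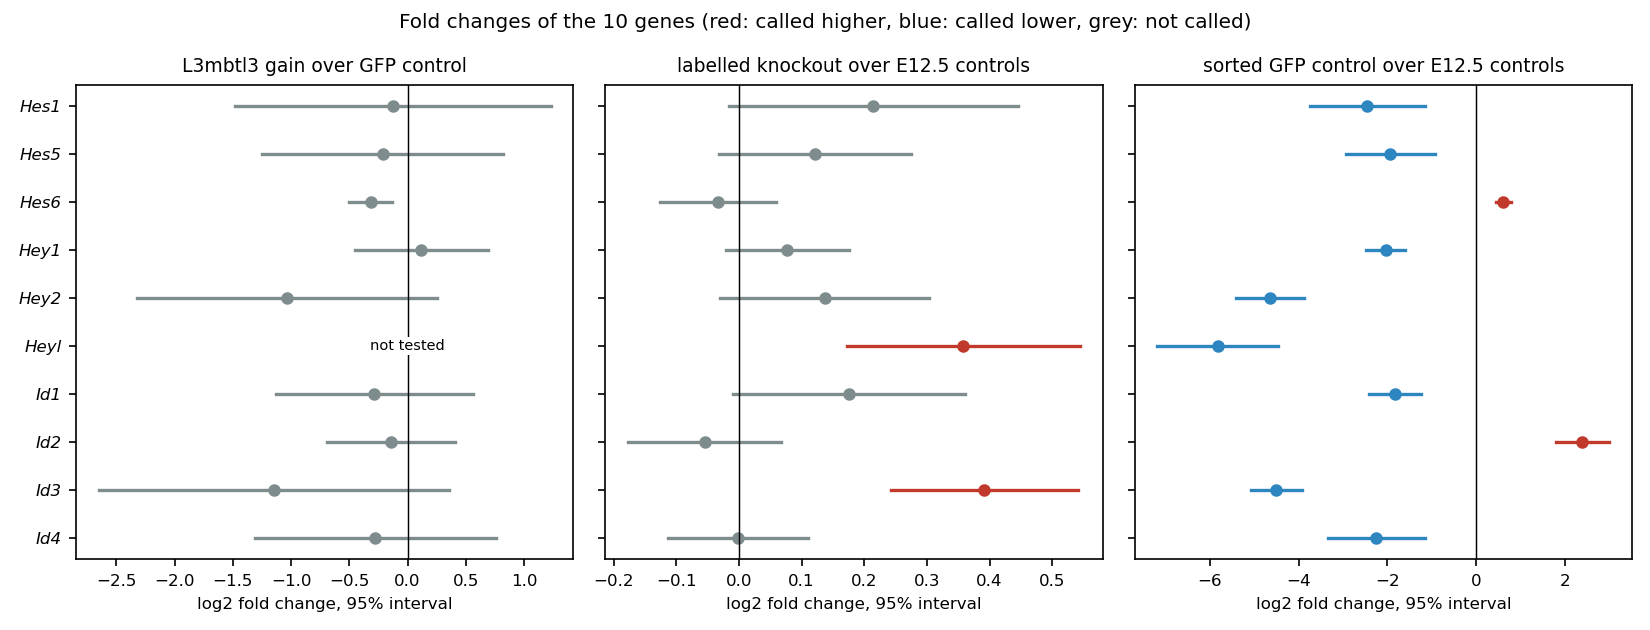
Log2 fold change (x axis, different range in each panel) with its 95% interval for each of the 10 genes, in the L3mbtl3 gain, labelled knockout and sorted-against-tissue comparisons. No gene was called in the gain panel, Id3 and Heyl were called higher in the labelled knockout panel, and in the sorted-against-tissue panel 2 genes were called higher and 8 lower.

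L3mbtl3 gain in sorted cells came with no called change among the Hes, Hey and Id genes, and the GFP controls spread more widely than the gain libraries for Hes1, Hes5, Id2 and Id4. Of the 10 genes 9 had enough counts to be tested and 0 were called by edgeR, against 0.0136% of 14698 genes (0.0068% higher and 0.0068% lower; 2 genes in all, and 1264 at an unadjusted p under 0.05). Hes6 had the smallest unadjusted p of these genes, 0.00478 in edgeR's fit, and the others were at 0.0995 or above. DESeq2 called 0 of the 9 as well, and voom with quality weights called 1, Hes6. The median fold change was -0.28 over the 9 genes and -0.03 over all genes tested.

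Hes6 was the only one whose groups did not overlap. It measured 135, 124 and 129 CPM in the gain libraries, against 155, 170.0 and 159 CPM in the GFP controls, and 7.38% of all genes tested were likewise lower in every gain library (9.21% were higher in every one). The fold change was -0.32 (log2, SE 0.0791, 95% interval -0.50 to -0.13), with an edgeR adjusted p of 0.471. It was called by voom with quality weights (-0.36, adjusted p = 0.0121), which called 13.6% of all genes, and by edgeR on all 11 libraries (-0.33, adjusted p = 0.0479), which called 0.569%.

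Hes1 and Hes5 overlapped between the groups. Hes1 had 6.17, 5.99 and 10.2 CPM in the gain libraries, against 14.5, 7.49 and 2.38 CPM in the GFP controls, a log2 difference of -0.13 (SE 0.579, interval -1.49 to 1.23). The gain libraries all lay inside the range of the controls. Hes5 had 12.9, 9.07 and 8.45 CPM in the gain libraries, against 17.6, 13.03 and 4.70 CPM in the GFP controls, at -0.21 (SE 0.443, interval -1.25 to 0.82). Without GFP control library 1, which was highest for both, Hes1 stood at 0.62 and Hes5 at 0.21, neither called.

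Among the Hey genes, Hey1 measured 19.5, 22.5 and 30.0 CPM in the gain libraries, against 28.0, 21.9 and 16.4 CPM in the GFP controls (0.12, SE 0.243, interval -0.45 to 0.69). Hey2 had 11, 6 and 13 counts in the gain libraries, against 35, 16 and 12 counts in the GFP controls, at -1.03 (SE 0.548, edgeR adjusted p = 0.611), or -0.53 without GFP control 1. Heyl had 3, 3 and 0 counts in the gain libraries, against 9, 7 and 0 in the GFP controls, and was not tested. All 3 overlapped between the groups.

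The Id genes overlapped too. Id2 measured 224, 235 and 264 CPM in the gain libraries, against 176, 266 and 359 CPM in the GFP controls (-0.14, SE 0.234, interval -0.69 to 0.41), and Id4 measured 67.8, 76.6 and 54.7 CPM, against 134, 74.0 and 32.7 CPM (-0.28, SE 0.440, interval -1.31 to 0.76). Id1 had 82, 55 and 39 counts in the gain libraries, against 106, 54 and 55 in the GFP controls, at -0.29 (SE 0.361). Id3 had 24, 14 and 3 counts in the gain libraries, against 41, 30 and 19 in the GFP controls, at -1.15 (SE 0.641, edgeR adjusted p = 0.618), or -1.81 without gain library 1 and -0.70 without gain library 3. Endothelial and meningeal markers had fold changes below 0 in the same libraries, with no call by edgeR's main fit. This held for 9 of 9 tested endothelial markers (median -1.25). Of these 9, DESeq2 called 1 and voom 4, and edgeR on all 11 libraries called 3 of 11. Endothelial sums were 5.003 to 8.70 CPM in the gain libraries, against 14.7 to 19.9 CPM in the GFP controls. It also held for 7 of 7 meningeal markers (median -1.74). Their sums were 6.33 to 19.7 CPM in the gain libraries, against 14.3 to 70.5 CPM in the GFP controls. The meningeal median was -0.69 without GFP control 1, the library with the highest sum. The part of endothelial and meningeal cells in the values of Hey2 and Id3 was not tested.

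The spread among the GFP controls followed a common order in most of these genes. CPM was highest in library 1 and lowest in library 3 for Hes1, Hes5, Hey1, Hey2, Id1, Id3 and Id4, which is 7 of the 9 tested genes, and 32.1% of all tested genes had that order. Id2 had the opposite order, as did 30.1% of all genes, and Hes6 had neither. Summed apical progenitor markers stood at 3551, 2895 and 2057 CPM in GFP controls 1, 2 and 3, and 11 of the 16 markers had the order of Hes1. Summed neuronal markers stood at 8476, 10156 and 12741 CPM, and ventral telencephalon markers, such as Dlx2 and Gad2, at 1000, 319 and 16.4 CPM. In the gain libraries the apical sums lay closer together, at 2735, 2840 and 2825 CPM, and the ventral sums at 253, 280 and 14.8 CPM. The part of these cell types in the spread of the repressors was not tested.

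**Figure D3:**
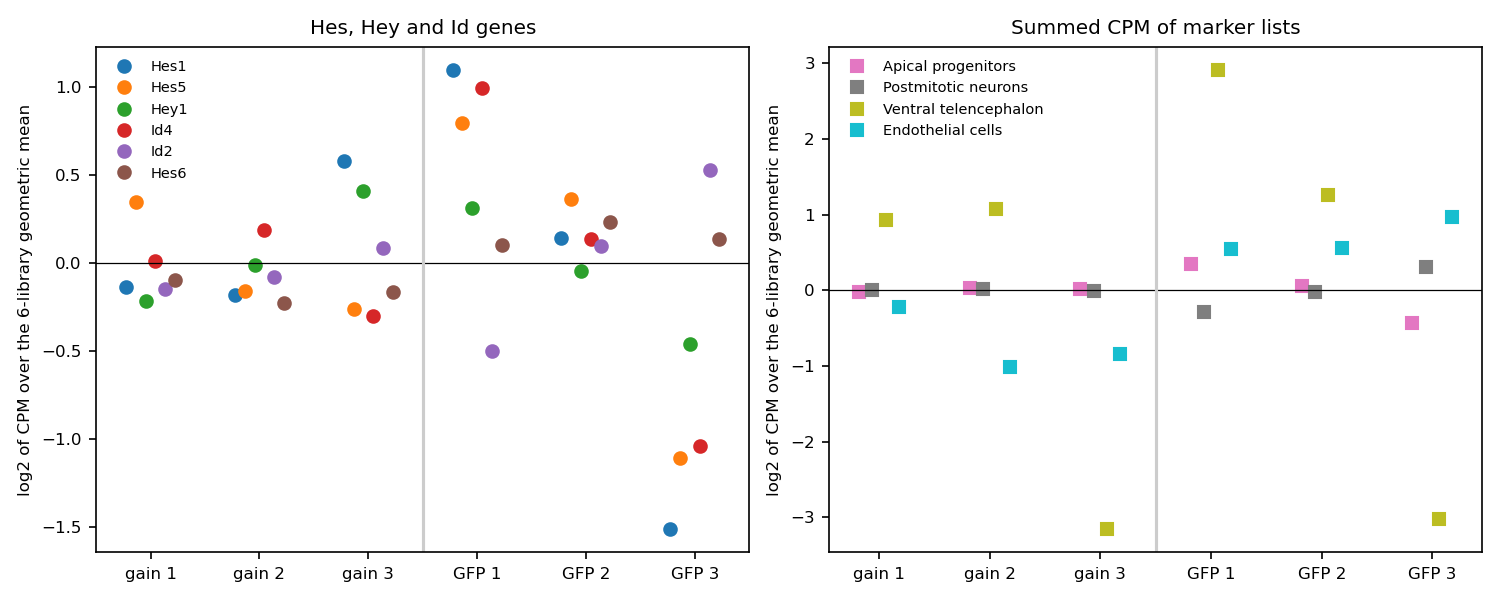
Log2 of CPM over the geometric mean of the 6 sorted libraries (y axis) in each L3mbtl3 gain and GFP control library, for 6 genes (left) and for the summed CPM of 4 marker lists (right; the y ranges differ). Among the GFP controls, Hes1, Hes5, Hey1 and Id4 were highest in library 1 and lowest in library 3, while Id2 was lowest in library 1; there the apical marker sum had the order of Hes1 and the neuronal sum that of Id2.

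No core Notch gene was called by edgeR with L3mbtl3 gain (0 of 22, median -0.12; 0 by DESeq2 and 1 by voom), and the 2 with the smallest p were Mib1, the ubiquitin ligase that activates Notch ligands (0.46, SE 0.181), and Notch4 (-0.59, SE 0.278). None of 17 tested BMP genes was called by edgeR (median 0.01; 1 by DESeq2, 6 by voom, and 2 by edgeR without GFP control 1). Bmpr1b, a BMP receptor, measured 14.5 CPM in gain libraries and 26.2 CPM in GFP controls (-0.85, SE 0.168, edgeR adjusted p = 0.457), and Smad7, a feedback inhibitor, stood at -0.49 (SE 0.135). EdgeR called none of the Groucho corepressors (0 of 5, median -0.26), E proteins (0 of 3, median 0.33; Tcf4 at 0.41, SE 0.107), proneural and neuronal bHLH factors (0 of 12, median 0.02) and other Hes-related genes (0 of 2; Helt at -2.20, SE 1.39) either, nor of apical progenitors (0 of 16, median -0.19), intermediate progenitors (0 of 11, median 0.05), neurons (0 of 13, median -0.06), cortical hem (0 of 4, median -0.48), choroid plexus (0 of 6, median -0.29), ventral telencephalon (0 of 11, median -1.15), pericytes and mural cells (0 of 4, median -0.88), microglia (0 of 10, median -2.26), astrocyte and oligodendrocyte lineages (0 of 9, median -0.91) and immediate early genes (0 of 12, median 0.11). Microglial sums did not overlap, at 14.7 to 22.3 CPM in the gain libraries, against 35.4 to 66.5 CPM in the GFP controls. Of the 10 microglial markers 6 were called by DESeq2 and 9 by voom, which called 0.83% and 13.6% of all genes. Without GFP control 1, edgeR called 7 of 12 microglial markers and 2.77% of all genes. Voom also called 3 of 3 E proteins (DESeq2 1), 2 of 5 Groucho corepressors, and 1 or 2 genes of the apical, intermediate progenitor, neuronal, proneural and astrocyte or oligodendrocyte lists. Without GFP control 1 the median was -0.02 for ventral telencephalon, -0.45 for pericytes and mural cells, -0.38 for glial lineages, 0.19 for apical progenitors and 0.10 for Notch genes.

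In the E12.5 libraries labelled knockout, Id3 and Heyl were higher than in the controls, and the other 8 genes were not called. Of the 10 genes 2 rose and 0 fell, against 3.63% of 16361 genes called higher and 3.78% called lower (7.41% in either direction). The median log2 fold change was 0.13 over the 10 genes and 0.00 over all genes. Of the labelled knockouts library 1 was male and library 2 female, and all 3 controls were male.

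Id3 had 45.0 and 52.1 CPM in the libraries labelled knockout, against 39.6 and 37.0 CPM in the heterozygotes and 35.5 CPM in the wild-type. Both labelled knockouts lay above every control. The fold change was 0.39 (log2, SE 0.0681, 95% interval 0.24 to 0.54, edgeR adjusted p = 0.00540), or 1.31-fold. The call was lost when all 11 libraries were fitted together (0.39, edgeR adjusted p = 1), a fit in which 15 genes were called in all.

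Heyl had 21.6 and 21.1 CPM in the libraries labelled knockout, against 16.4, 18.5 and 15.9 CPM in the controls, again without overlap. The fold change was 0.36 (SE 0.0853, interval 0.17 to 0.54, edgeR adjusted p = 0.0269), or 1.28-fold. The call was lost in 7 of 13 alternatives, with fold changes of 0.32 to 0.43 over all of them. The sex term marked only labelled knockout library 2, the sole female here. It therefore nearly repeats the fit without that library (0.377 and 0.376), and sex and that library cannot be told apart. Leaving out heterozygote library 1 (edgeR adjusted p = 0.0793), the wild-type (0.0927), labelled knockout library 1 (0.0592) or labelled knockout library 2 (0.0748) each ended it.

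Among the Hes genes Hes1 had 44.9 and 58.9 CPM in the libraries labelled knockout, against 45.8, 45.3 and 44.6 CPM in the controls (0.21, SE 0.100, edgeR adjusted p = 0.261). Only labelled knockout library 2, the female one, lay above the controls. Without labelled knockout library 1 Hes1 was called (0.40, edgeR adjusted p = 0.00159), in a fit that called 10.6% of all genes (1785), and it was also called with no filter on low counts (0.22, edgeR adjusted p = 0.00809), where 8.58% were (2266). Without labelled knockout library 2 it stood at 0.0068. Hes5 had 46.9 and 51.7 CPM, against 50.8, 42.7 and 43.6 CPM in the controls (0.12, interval -0.03 to 0.28). Hes6 had 103.6 and 103.5 CPM, against 108, 107 and 106 CPM (-0.03, interval -0.13 to 0.06). Hes6 and Id2 lay below every control in both labelled knockouts, as did 22.3% of all genes tested.

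Hey1 had 94.0 and 98.0 CPM in the libraries labelled knockout, against 93.6, 91.4 and 90.9 CPM in the controls (0.08, interval -0.02 to 0.18). Id1 had 14.8 and 16.0 CPM, against 14.3, 13.8 and 13.3 CPM in the controls (0.18, SE 0.0847, edgeR adjusted p = 0.253). With Id3 and Heyl, Hey1 and Id1 were the 4 genes that were higher in both labelled knockouts than in every control, a pattern held by 14.4% of all genes tested. Hey2, which lies on chromosome 10 (30832359 to 30842801, GRCm38), 4.47 Mb from L3mbtl3 (26274468 to 26375185; distance between gene starts), had 32.8 and 29.4 CPM, against 27.3, 29.7 and 29.1 CPM in the controls (0.14, interval -0.03 to 0.30). Id2 had 49.9 and 48.6 CPM, against 50.7, 52.5 and 51.8 CPM in the controls (-0.05, interval -0.18 to 0.07). Id4 had 368 and 399 CPM, against 419, 367 and 378 CPM in the controls (0.00, interval -0.11 to 0.11).

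Notch and BMP genes called in the same libraries were all higher. Of 22 core Notch genes 2 rose and 0 fell (median 0.05): the ligand Jag2 at 42.8 CPM in the labelled knockouts against 17.0 CPM in the controls (1.35, SE 0.0711, edgeR adjusted p = 2.77e-06), and the ligand Jag1 at 49.9 against 39.4 CPM (0.35, SE 0.0624). Of 21 BMP genes 2 rose and 0 fell (median 0.09): Fst, a secreted antagonist of activins and BMPs (0.48, SE 0.121), and the receptor Acvr2b (0.30, SE 0.0786). No BMP gene was called by DESeq2, by voom, or without any one of the 3 controls, and 1 was without labelled knockout 1; of the Notch genes 2 to 5 were called with a library left out. The corepressors Tle4 (0.25) and Tle1 (0.20) rose, 2 of 5, and the E protein gene Tcf4 fell (-0.28, SE 0.0473), 1 of 3. Among other Hes-related repressors Bhlhe41 rose (0.90, SE 0.233), 1 of 2 tested. Of 12 proneural and neuronal bHLH factors 5 fell and 2 rose (median -0.28), with Bhlhe22 (-0.59), Neurod1 (-0.44), Neurod4 (-0.79) and Nhlh1 (-0.27) among the lower ones.

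Markers of other cell types in the libraries labelled knockout moved in several directions. Of 11 endothelial markers 0 were called (median 0.04; summed 488 to 504 CPM in the labelled knockouts, against 437 to 522 CPM in the controls). Of 8 pericyte and mural markers 0 were called (median 0.04), Pdgfrb having the smallest p (0.27, edgeR adjusted p = 0.0563), and of 11 meningeal markers 1 fell, Crabp2 (-0.26; list median 0.05). Without labelled knockout 2, 3 meningeal markers were called higher and 2 lower (median 0.20). Cortical hem markers were higher in 3 of 12 cases and lower in 0 (median 0.27): Wnt8b (0.61), Msx1 (0.33) and Rspo2 (0.41) rose, and the list summed to 357 and 435 CPM in labelled knockouts 1 and 2, against 314 to 331 CPM in the controls. The hem median was 0.03 without labelled knockout 2 and 0.41 without labelled knockout 1, with 2 and 6 markers called higher. Of 10 choroid plexus markers 7 fell (median -0.73), with sums of 266 to 269 CPM in the labelled knockouts, against 573 to 628 CPM in the controls, and of 12 ventral telencephalon markers 3 rose (median 0.84; summed 94.7 to 135 CPM in the labelled knockouts, against 54.7 to 76.7 CPM in the controls). Apical progenitor markers fell in 5 and rose in 1 of 16 cases (median 0.04), intermediate progenitor markers fell in 7 of 11 (median -0.31) and neuronal markers in 3 of 13 (median -0.24). Microglial markers held no call (0 of 12, median -0.12), astrocyte and oligodendrocyte lineages 1 in each direction of 10 (median -0.04) and immediate early genes 1 higher of 10 (median 0.15). The part of these cell types, vascular and meningeal cells included, in the values of Id3 and Heyl was not tested.

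**Figure D4:**
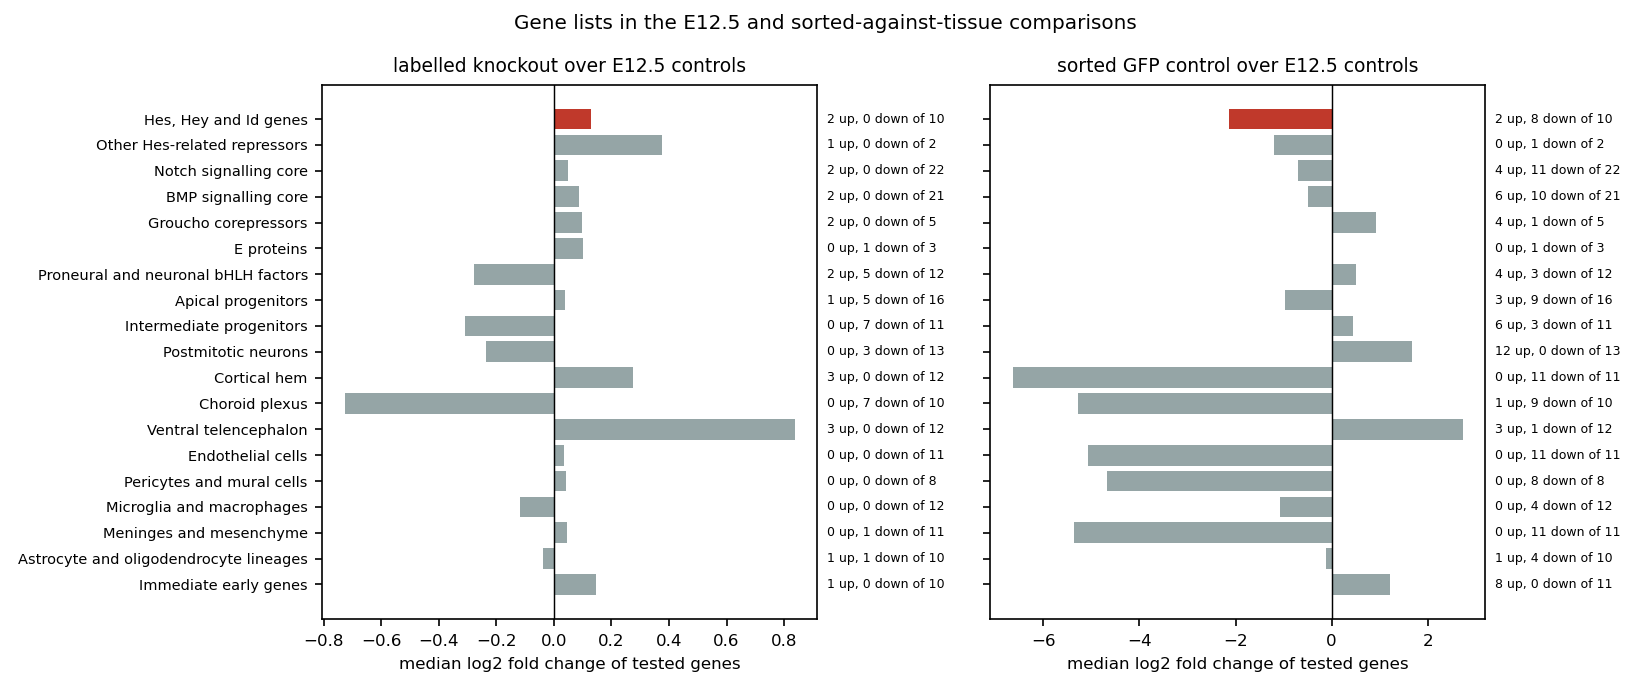
Median log2 fold change (x axis, different range in each panel) of the tested genes of each list, for the labelled knockouts over E12.5 controls and for sorted GFP controls over E12.5 controls, with the number called higher and lower beside each bar. The Hes, Hey and Id genes (red) stand at 0.13 and -2.14; endothelial markers stand at 0.04 and -5.07.

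Across all 11 libraries the 10 genes followed patterns shared with different sets of genes. These are Pearson correlations of log2(CPM + 1) over 11 libraries, which mainly reflect the difference between sorted cells and tissue, and are given as a description over 10141 genes with a mean of at least 10 CPM. Closest to Hey2 were Col4a1, Col4a2 and Lama4, components of basement membrane (r = 0.998 each), and closest to Heyl was Ptprb, an endothelial phosphatase, followed by Dock6 and Tns2 (r = 0.999 each). Ehd4 and Otx2 were among the genes closest to Id3 (r = 0.997 each). Id4 was most like Ncaph, Clspn and Rad54l, genes of chromosome condensation and of DNA replication and repair (r = 0.999, 0.998 and 0.998), and Hes5 was most like Orc1, Cenpa and Kif15, genes of replication origins, centromeres and the spindle (r = 0.996, 0.995 and 0.995). Id2 was most like Numbl, Ppp2r5b and Hist3h2ba (r = 0.999, 0.998 and 0.998), and Hes6 like Mapkapk2, Ercc8 and Snn (r = 0.988, 0.987 and 0.979). Hes1 was most like Ccdc157, Pkn2 and Siah1b (r = 0.997, 0.994 and 0.994), Hey1 like Spg20, Gulp1 and Prrx1 (r = 0.998, 0.997 and 0.996), and Id1 like Sulf2, Spata6 and Slc20a2 (r = 0.996, 0.996 and 0.994). Among the 10 genes themselves, Hey2 and Heyl (r = 0.995) and Id3 and Heyl (r = 0.994) were the pairs closest in pattern, and Id2 and Heyl (r = -0.987) the pair farthest apart.

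The comparison of sorted cells with tissue uses the GFP controls of the gain comparison and the tissue controls of the labelled knockout comparison, so the fold changes are not independent and are set side by side only. Id3 stood at -1.15 with L3mbtl3 gain (SE 0.641, not called), at 0.39 in the labelled knockouts (called) and at -4.50 in sorted GFP controls over tissue. Heyl was not tested with gain, and stood at 0.36 in the labelled knockouts (called) and at -5.82 in sorted GFP controls over tissue. Hes6 stood at -0.32, -0.03 and 0.61, Hes1 at -0.13, 0.21 and -2.45, and Id2 at -0.14, -0.05 and 2.39. In edgeR's main fits, none of Hes6, Hes1 and Id2 was called with gain or in the labelled knockouts.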

How the data were processed

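Per the labels' protocols, a stranded kit and polyA selection were used for the 11 libraries, read from a single end (75 bases). The authors deposited raw counts for each gene, made by featureCounts 2.0.1, reversely stranded over exons of an Ensembl GRCm38 annotation whose release is not given in the sources used here; the command sets no option for counting multi-mapping or overlapping reads, per the file headers. HISAT2 2.2.1, SAMtools 1.9, CASAVA 1.9, FastQC 0.11.8 and deepTools 3.3.0 are named in the submitters' processing notes. CD15+ libraries named in the series' design were not analysed here.

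Each comparison was tested on the counts with edgeR 4.0.16 in R 4.3.3 (TMM, filterByExpr, robust quasi-likelihood fit, two-sided, Benjamini-Hochberg over all genes tested, called under 0.05) on its own libraries. The SE is the absolute log2 fold change over the square root of F, and 95% intervals use the fit's degrees of freedom. CPM and RPKM used TMM factors of all 11 libraries and the exon length in the deposited files. Alternatives used DESeq2 1.42.0, voom of limma 3.58.1, other scalings, no filter, a replicate block, a term for sex, single fits and left-out libraries. The scripts were tested on simulated data with the same spread for every gene and library. That test does not measure how many real changes these comparisons could find. Groups came from sample titles. The members and lists were chosen with earlier results of these data known, so the lists' counts and medians are descriptions. Named genes were all 10 members, L3mbtl3, up to 4 called genes per list with the smallest p (the 2 smallest p where none was called) and the 3 genes closest in pattern; some genes that this rule names are not reported here.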

Additional observations from a re-analysis of the deposited data

How the results depend on the processing

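In the comparison of sorted cells with tissue all 10 genes kept their direction and call in all 13 alternative fits, or 130 gene values. The number of genes called there ran from 7793 to 11333 with a library left out. In the gain comparison 14 alternative fits of 9 genes gave 10 reversals and 2 added calls (both Hes6) among 126 gene values. The labelled knockout comparison, with 13 alternative fits, gave 5 reversals (all Id4, near 0), 8 lost calls and 2 added calls (both Hes1) among 130. Heterozygote controls only and leaving out the wild-type are the same fit and count once. At E12.5 the sex term nearly repeats the fit without labelled knockout library 2, the only female, and both are counted. Gene lists changed more often, counting each list in each alternative fit. Their counts of calls moved by over 1.5 times in 25 of 252 such values with gain. They did so in 82 of 234 values in the labelled knockouts and 24 of 234 in sorted cells against tissue. Medians moved by over the spread between replicates in 47, 36 and 59 values. In sorted cells against tissue the calls ran from 0 to 11 for ventral telencephalon markers and from 0 to 2 for E proteins, and the astrocyte and oligodendrocyte median from -0.63 to 0.47. The cause of each was not tested.

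With L3mbtl3 gain the number of genes called was 122 with DESeq2, 2001 with voom, 97 with all 11 libraries and 1 with a sex term, and 0 to 415 with a library left out (0 without GFP control 2, 415 without GFP control 1, 1 without gain library 1 or 3, 6 without gain library 2); members called were 1 (lower) with voom and with all 11 libraries, and 0 in every leave-one-out fit. Reversed fold changes were Hes1 at 0.023 with voom, 0.10 with the replicate block, 0.62 without GFP control 1 and 0.01 without gain library 2; Hes5 at 0.21, Id1 at 0.043 and Id4 at 0.33 without GFP control 1; Hey1 at -0.05 and Id2 at 0.14 without GFP control 3; and Hey1 at -0.080 without gain library 3. With a library left out the fold changes ran from -0.56 to 0.62 for Hes1, -0.59 to 0.21 for Hes5, -0.080 to 0.34 for Hey1, -0.58 to 0.043 for Id1, -0.36 to 0.14 for Id2 and -0.65 to 0.33 for Id4. Over all alternatives Hey2 ran from -1.83 (sex term) to -0.53 (without GFP control 1) and Id3 from -1.81 to -0.70. Gain libraries 1 and 3 were typed as female, and gain library 2 and the GFP controls as male. The sex term here therefore left the gain effect to gain library 2 alone, which had 6 counts of Hey2. It is not a check on all gain libraries, since sex and gain are nearly confounded.

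In the labelled knockouts the number of genes called was 2266 with no filter, 15 with all 11 libraries, 654 with a sex term and 603 with heterozygote controls only, and 603 to 1785 with a library left out (603 without the wild-type, 673 without heterozygote 2, 658 without labelled knockout 2). Members called, all higher, were 1 with DESeq2, with a sex term and with heterozygote controls only, 0 with all 11 libraries, and 1 or 2 with a library left out. With no filter on low counts Hes1 was called beside Id3 and Heyl. Id4 reversed to 0.0047 with no filter, 0.00015 with voom, 0.00030 with the replicate block, 0.040 without heterozygote 1 and 0.054 without labelled knockout 1 (range -0.059 to 0.054 with a library left out). With 1 labelled knockout left, that library was assumed to vary like the controls. The same holds for the sex term, which marked only labelled knockout library 2.

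Same-numbered gain and GFP control libraries had correlations of their deviations of 0.18, 0.03 and 0.38. Gain libraries 1 and 3 were closest to the GFP control of their number, and gain library 2 to GFP control 1 (0.19). Libraries 3 of both groups also had the lowest ventral sums, 14.8 and 16.4 CPM. The main fit did not take the numbers as pairs, and whether same-numbered libraries share a batch was not tested. Between labelled knockouts and heterozygotes the correlations were -0.06. With the replicate block 3, 948 and 10529 genes and 0, 2 and 10 members were called in the gain, labelled knockout and sorted-against-tissue comparisons. In the last comparison the numbers join libraries of separate experiments, so its block holds no known pairing. Depth limits Hey2, Heyl and Id3 in sorted cells, where counts were 41 or fewer.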
